A study of Caenorhabditis elegans with 6 samples.

Results

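The genes described here are 59 genes of the nematode Caenorhabditis elegans that carry only a sequence name and read higher in worms mutant for the transcription factor gene hlh-30. A gene was taken when its annotated symbol was a sequence name, its mean log2 value over the mutant arrays was at least 6, all 3 mutant values lay above all 3 wild-type values, and the means differed by at least 0.4. These criteria were applied to probe sets annotated with 1 gene, and the brightest such probe set stood for its gene. The array carried 17118 genes with a probe set of their own, 6718 of them sequence-named, and 2481 of those reached the mutant mean of 6. The 59 genes are 2.38% of these 2481. Since the difference between genotypes chose the genes, their differences are given as a description and no test of them is reported.

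The study used 6 Affymetrix arrays: 3 held RNA of N2, the wild type, and 3 held RNA of hlh-30(tm1978) worms, called mutant below. Per the labels, worms of both genotypes grew at 20 °C on egg plates, and each biological replicate mixed RNA taken separately from embryos and from the larval stages L1 and L2. Whole animals were used, so a value is an average over 3 stages and all tissues, and a change in the number of cells of one type cannot be told apart from a change in RNA per cell. The labels do not say if the strain carrying tm1978 was outcrossed, and further differences between the strains cannot be told apart from the tm1978 allele.

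The protein made from hlh-30 belongs to the basic helix-loop-helix transcription factors. It is the counterpart of TFEB in mammals and is known for switching on autophagy and lysosome genes and for roles in fat use and longevity. A C. elegans sequence name gives the genomic clone on which a gene was predicted and a number on that clone, and it stays in use until a gene receives a name from a mutant, a family or a function. Such a name holds no information on function, and none of the 59 genes has another symbol in RefSeq, so roles are not given for them. RefSeq (assembly WBcel235) annotates 57 of the 59 as protein-coding and 2, K02E7.6 and F53C3.5, as pseudogenes, which are 3.39%. Over the 2481 sequence-named genes of the same minimum level, pseudogenes were 1.21%.

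All 6 arrays shared a lowest value of 2.04, and the highest value was 16.95 on the log2 scale. At its brightest probe set, the hlh-30 transcript read 12.05, 12.07 and 12.34 on the N2 arrays and 10.52, 10.65 and 9.66 on the mutant arrays, so the labels and this transcript went the same way. Markers of every tissue looked at were measured, among them 15 of 18 early embryo transcripts, 10 of 10 of body wall muscle, 9 of 10 of intestine and 9 of 9 of neurons. Of 7 adult sperm and yolk markers, 2 passed the filter on dim signals, both with a higher mean in the mutant (median difference 0.20), and the adult cuticle collagen col-19 lay under it. Of all 9113 genes tested, 343 (3.76%) had every mutant array above every N2 array and 899 (9.87%) had every mutant array below. At an adjusted p under 0.05 in limma, 1 gene was called higher (0.011%) and 12 were called lower (0.132%), and nothing is read from these calls for the 59 genes, which the same contrast chose.

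The 59 differences ran from 0.40 to 4.23 on the log2 scale, with a median of 0.59, against a median of 0.02 over the 2481 sequence-named genes. Most were small: 20 lay between 0.4 and 0.5, 11 between 0.5 and 0.6 and 21 between 0.6 and 1, and 7 reached a log2 difference of 1, which is 2-fold. The 7 were C33H5.1, F49C12.4, Y49G5A.1, K02E7.6, T23F2.4, K01D12.8 and F14F8.8. Mutant means covered a wide range, from 6.81 to 13.83 with a median of 9.89, and the large differences came from the dimmer genes. Among the 20 genes with a mutant mean of 10 to 12 the highest difference was 0.81, and among the 7 of at least 12 it was 0.73. The same criteria were met by 63 of 5547 genes with other names (1.14%), and by 122 of the 8028 genes of both kinds at this level (1.52%). With no minimum difference, and with the brightest probe set of a gene taken first, 130 of the 2481 sequence-named genes (5.24%) had separate groups with the mutant higher. The mirrored criteria for lower genes were met by 162 of 2478 sequence-named genes (6.54%) and 322 of 5552 other genes (5.8%).

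**Figure D1:**
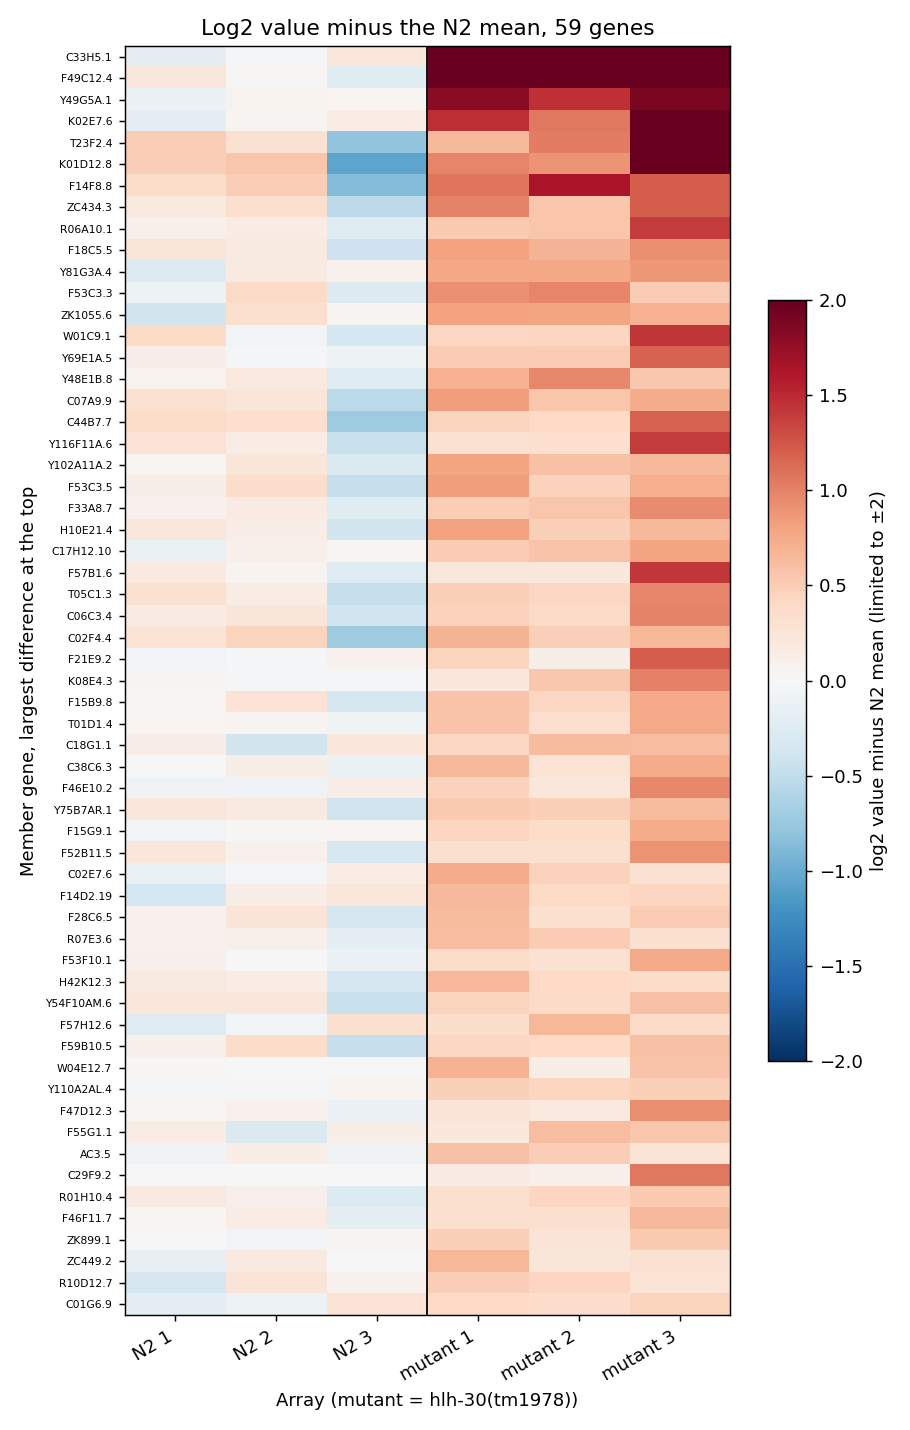
Log2 value minus the N2 mean of the gene, for the 59 genes (one line each, largest difference at the top) on the 3 N2 and 3 mutant arrays. Colours are limited to values between -2 and 2. N2 3 is the lowest N2 array for 37 genes and mutant 3 the highest mutant array for 35.

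C33H5.1 had the largest difference. It read 2.39, 2.55 and 2.82 on the N2 arrays, close to the lowest value of the scale, and 7.75, 7.61 and 5.07 on the mutant arrays. Every mutant value was far above every N2 value, but mutant 3 deviated by -2.61 from the mean of the other mutants. Group means were 2.58 ± 0.22 (SD, n = 3) for N2 and 6.81 ± 1.51 (SD, n = 3) for the mutant. With each value under a log2 minimum of 4 set to that minimum, the mutant level was at least 7.01-fold higher. This gene was also the dimmest of the 59 in the mutant, and it lies nearest to the minimum mean of 6.

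F49C12.4 followed, with 6.74, 6.53 and 6.27 in N2 and 10.07, 10.07 and 8.70 in the mutant. Here too mutant 3 was the lowest of the mutant arrays, with a deviation of -1.37 from the mean of the other mutants. The means of 6.51 ± 0.23 and 9.62 ± 0.79 (SD, n = 3 each) differ by 3.10, an 8.60-fold higher level. C33H5.1 and F49C12.4 were thus highest on mutant 1 and mutant 2, whereas most of the 59 genes were highest on mutant 3.

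Y49G5A.1 was the most even of the genes with a large difference. N2 arrays read 6.313, 6.505 and 6.464, and mutant arrays 8.23, 7.88 and 8.31. The lowest mutant value stood 1.38 above the highest N2 value, while the values of a genotype spanned at most 0.42. Its means were 6.43 ± 0.10 and 8.14 ± 0.22 (SD, n = 3 each), a 3.28-fold difference.

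The pseudogene K02E7.6 read 6.96, 7.21 and 7.30 in N2 and 8.63, 8.20 and 9.22 in the mutant, a difference of 1.53 on the log2 scale. Its groups were separated by 0.91, and mutant 3 was the highest array. A probe set for a pseudogene can also read a related transcript, which the values do not resolve.

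In the next 3 genes the arrays numbered 3 made up much of the difference. T23F2.4 read 8.44, 8.25 and 7.16 in N2 and 8.59, 8.98 and 10.55 in the mutant, so that the groups came within 0.15 of each other while the difference of means was 1.43. K01D12.8 read 6.80, 6.84 and 5.25 in N2 against 7.27, 7.20 and 8.41 in the mutant. Without N2 3 and mutant 3 the difference of T23F2.4 was 0.44 in place of 1.43 and that of K01D12.8 was 0.41 in place of 1.33. F14F8.8, at 7.25, 7.38 and 6.03 in N2 and 7.96, 8.52 and 8.10 in the mutant, went from 1.30 to 0.92, as its N2 3 value alone stood apart.

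The other 5 of the 12 genes with the largest differences stayed under 2-fold. ZC434.3 read 8.24, 8.37 and 7.51 in N2 and 9.03, 8.60 and 9.25 in the mutant. R06A10.1 read 6.86, 6.92 and 6.53 against 7.29, 7.33 and 8.16. Both had their lowest N2 value and their highest mutant value on the arrays numbered 3. F18C5.5 did so as well, with 9.99, 9.92 and 9.33 in N2 and 10.55, 10.43 and 10.68 in the mutant, but its mutant arrays lay within 0.25 of each other. Y81G3A.4 did not follow those arrays: its mutant values of 7.95, 7.94 and 8.04 were nearly equal, and N2 1 was its lowest array among 6.91, 7.36 and 7.26. F53C3.3, described with its neighbours below, differed by 0.80.

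**Figure D2:**
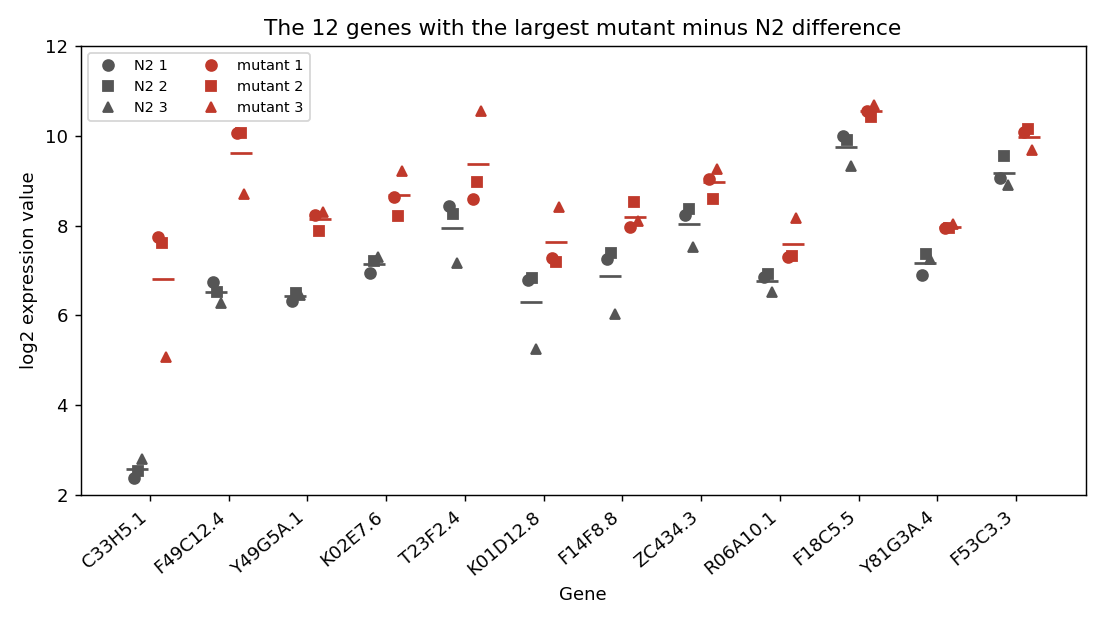
Log2 expression value (vertical axis) of the 12 genes with the largest difference on each array, with N2 in grey and the mutant in red, symbols for the replicate number and bars at the group means of 3 arrays. C33H5.1 and F49C12.4 are lowest in the mutant on mutant 3, while T23F2.4 and K01D12.8 are highest there.

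A clear separation was uncommon. In 5 of the 59 genes the gap between the lowest mutant and the highest N2 value was wider than the range within either genotype: F49C12.4, Y49G5A.1, Y81G3A.4, C17H12.10 and Y110A2AL.4. With the brightest probe set of a gene taken first, the same held for 8 of the 2481 sequence-named genes (0.322%) and 18 of the 8028 genes of both kinds (0.224%). It also held for 4 of the 63 genes with other names that met the criteria. Such a gap needs separate groups, which the criteria require, so nothing is read from the higher share among the 59. C17H12.10 read 7.98, 8.21 and 8.14 in N2 and 8.63, 8.68 and 8.89 in the mutant. Y110A2AL.4 read 12.08, 12.09 and 12.17 against 12.60, 12.55 and 12.59, a difference of only 0.46 but with an SD of 0.05 in N2 and 0.03 in the mutant. These 2 genes differed little and varied less. At the other end, the gap was under 0.1 in 16 genes, and its median over the 59 was 0.16. The smallest gaps were those of Y116F11A.6 (0.013), F57B1.6 (0.017) and W01C9.1 (0.017), where mutant 1 and mutant 2 lay just above the highest N2 array and mutant 3 lay more than 1.0 above both.

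The brightest of the 59 genes were C02E7.6, F15B9.8, T01D1.4, Y69E1A.5, H42K12.3 and Y110A2AL.4. C02E7.6 read 13.21, 13.31 and 13.48 in N2 and 14.07, 13.79 and 13.64 in the mutant, a mean difference of 0.50 in which mutant 3 was the nearest to N2. F15B9.8 read 13.20, 13.44 and 12.82 against 13.72, 13.57 and 13.91. Among these bright genes the pattern over arrays was not shared: F15B9.8 was highest on mutant 3 and C02E7.6 on mutant 1. T01D1.4 read 12.71, 12.72 and 12.58 against 13.23, 13.01 and 13.43, and Y69E1A.5 read 12.31, 12.15 and 12.09 against 12.69, 12.69 and 13.37. H42K12.3 read 12.47, 12.44 and 11.96 against 12.95, 12.69 and 12.65. T01D1.4 and Y69E1A.5 were highest on mutant 3, whereas H42K12.3 was highest on mutant 1 and lowest on N2 3.

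More than 1 probe set of their own was available for 10 of the 59 genes (16.9%, against 21.9% of the 2481). Their other 12 probe sets read the same RNA samples and so give no independent evidence, but they show how far the value depends on the probes. For F15G9.1 both probe sets were higher in the mutant without overlap: 11.34, 11.42 and 11.43 against 11.83, 11.76 and 12.14 at the brighter, with a difference of 0.51, and 9.47, 9.66 and 9.42 against 9.96, 9.87 and 10.47 at the other, with 0.58. For C02E7.6 and Y110A2AL.4 another probe set was brighter and its difference smaller, 0.16 and 0.31. That of Y110A2AL.4 was also without overlap, as was the second probe set of W04E12.7, with a difference of 0.28. ZC449.2 differed by 0.14, with overlap, at a brighter probe set and read 2.25 on every array at another. H42K12.3 differed by 0.35 at its second probe set, and H10E21.4, at 10.43, 10.33 and 9.83 against 10.99, 10.67 and 10.85 on the one that met the criteria, by 0.30 and 0.17 at 2 brighter ones. Y102A11A.2 went in opposite directions, 0.68 at one probe set and -0.32 at the other, where N2 read 8.95, 8.72 and 9.13 and the mutant 8.59, 8.82 and 8.44. C06C3.4 read 9.29, 9.37 and 8.73 against 9.58, 9.52 and 10.13, a difference of 0.61, and its second probe set differed by 0.40. That second probe set read 9.29, 9.51 and 8.53 in N2 and 9.51 on every mutant array, identical to N2 2. It did not meet the criteria, and without both arrays numbered 3 its difference was 0.11. When the brightest probe set of a gene was taken first and the criteria applied after, 55 genes remained, and C02E7.6, H10E21.4, Y110A2AL.4 and ZC449.2 were lost.

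Many of the 59 genes had their extreme values on the arrays numbered 3. N2 3 was the lowest N2 array in 37 of the 59 (62.7%, against 1316 of the 2481 sequence-named genes and 49.5% of the 8028 genes of both kinds), and mutant 3 the highest mutant array in 35 (59.3%, against 46.6% and 39.2%). The 63 genes with other names that met the same criteria were alike in this. Among them N2 3 was lowest in 44 (69.8%) and mutant 3 highest in 37 (58.7%). The criteria used these arrays, and a low N2 3 or a high mutant 3 raises the difference they require. The higher shares among the 59 are therefore not read as a property of these genes. The median over the 59 of the log2 value minus the N2 mean was 0.52 on mutant 1, 0.45 on mutant 2 and 0.74 on mutant 3. It was 0.08 on N2 1, 0.13 on N2 2 and -0.19 on N2 3. A deviation of at least 0.5 upward on mutant 3 was found in 17 genes (28.8%, against 25.2% of the 2481), and one of at least 0.5 downward on N2 3 in 18 (30.5%, against 20.5%). Both were found in 7 (11.9%, against 12.5%) and neither in 31 (52.5%, against 66.8%).

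Without N2 3 and mutant 3 the median difference of the 59 genes was 0.42 in place of 0.59. The difference stayed at 0.4 or more in 35 genes and fell below it in 24. It was smaller by more than 1.5 times in 29 genes and larger in 15. All 59 stayed above 0, which the criteria require, because no mutant value may lie below any N2 value. Under 0.2 were 8 genes: C44B7.7, Y116F11A.6, F57B1.6, F52B11.5, Y54F10AM.6, F59B10.5, F47D12.3 and C29F9.2. C29F9.2 is the plainest of them, at 8.30, 8.29 and 8.29 in N2 and 8.46, 8.40 and 9.35 in the mutant.

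Most early embryo markers moved with these arrays. Over the 15 measured early embryo markers, such as the maternal cell fate regulators pos-1, mex-5 and pie-1, the mean log2 level was 8.09, 7.78 and 7.30 on the N2 arrays and 7.31, 7.32 and 8.92 on the mutant arrays. On mutant 3 this list lay 1.61 above the other mutants, and on N2 3 it deviated by -0.63 from the other N2 arrays. Single markers differed from this: skn-1 deviated by -0.72 on mutant 3, mei-1 by 0.003 on mutant 3 and glp-1 by 0.09 on N2 3. The 59 genes deviated by a median of 0.17 on mutant 3 and -0.29 on N2 3. These are medians over genes, not means of a list, so the sizes are not compared. The directions are not compared either, because a high mutant 3 and a low N2 3 raise the difference that the criteria require. The medians were 0.04 and -0.11 over the 2481 sequence-named genes. They were 0.22 and -0.31 over the 63 genes with other names that met the criteria. The median difference of the markers was 0.17 over all arrays and -0.47 without both arrays numbered 3. Of the 18 markers on the list, oma-1, egg-1 and par-2 lay under the filter on dim signals. Body wall muscle markers ran the other way, with 13.38, 13.43 and 13.76 in N2 and 13.05, 13.11 and 12.81 in the mutant. The 4 measured germline markers of 8 deviated like the embryo markers, by 0.84 on mutant 3 and -0.29 on N2 3. Intestine and pharynx markers deviated upward on N2 3, by 0.51 and 0.62, and by -0.19 and -0.26 on mutant 3. Without both arrays numbered 3, the median difference of the body wall muscle markers was -0.35, against -0.62 over all arrays. The part of embryo or tissue content in the differences of the 59 genes was not tested.

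**Figure D3:**
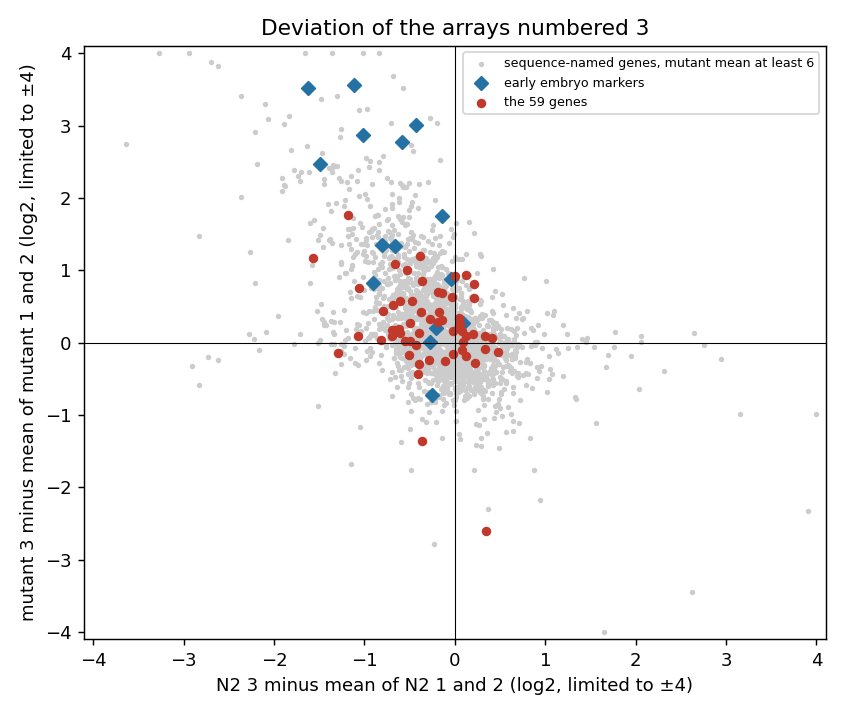
Deviation of N2 3 from the mean of N2 1 and N2 2 (horizontal) and of mutant 3 from the mean of mutant 1 and mutant 2 (vertical), in log2 units limited to between -4 and 4, for the 59 genes (red), 15 early embryo markers (blue) and 2481 sequence-named genes (grey). Most early embryo markers lie at the upper left, and 7 of the 59 genes deviate by at least 0.5 in that direction on both arrays.

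To read the same measure on arrays that the choice of genes had not used, the criteria were applied to 4 arrays and the chosen genes were read on the other N2 and mutant array. With the arrays numbered 1 left out, 116 genes were chosen, and 84 of them (72.4%) were higher on mutant 1 than on N2 1, against 36.9% of the 2481 sequence-named genes at that level. The median difference of the chosen genes was 0.59 on the arrays used and 0.15 on those left out, where that of the 2481 was -0.03. With the arrays numbered 2 left out, 200 genes were chosen and 92 (46.0%) were higher on mutant 2 than on N2 2, against 31.5% of 2490. Of the chosen genes 9 were exactly equal, and their median was 0, against -0.06 for the 2490. With the arrays numbered 3 left out, 120 genes were chosen and 50 (41.7%) were higher on mutant 3 than on N2 3, against 54.1% of 2467. The median of the chosen genes was -0.12, against 0.07 for the 2467. Of the genes chosen, 50, 55 and 35 were among the 59. At the probe set that met the criteria, such a gene must be higher on any left-out arrays. The other chosen genes were higher in 34 of 66, 38 of 145 and 15 of 85. Membership in the 59 used all 6 arrays, so this split depends on the left-out arrays and nothing is read from it. Each of these readings is 1 array against 1 and carries no test. Under the mirrored criteria for lower genes the shares that were lower on the left-out arrays were 81.8% of 220, 82.0% of 228 and 34.2% of 442, where 53.9%, 59.2% and 41.1% of all sequence-named genes at that level were lower.

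**Figure D4:**
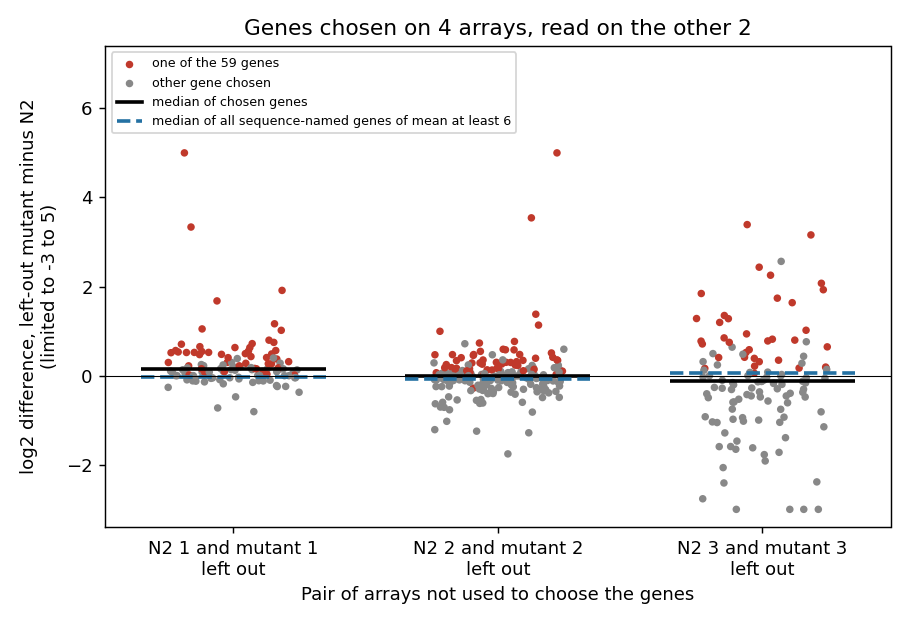
Log2 difference between the left-out mutant and N2 arrays (vertical, limited to between -3 and 5) for the genes chosen on the other 4 arrays, with the 59 genes in red and other chosen genes in grey. The criteria place a red gene above 0 at the probe set that met them, so red against grey is no comparison. The black bars are the medians of the chosen genes, 0.15, 0 and -0.12. The dashed blue bars are those of all sequence-named genes at that level, -0.03, -0.06 and 0.07.

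Position along the genome was read only as the order of protein-coding genes and pseudogenes in RefSeq, since no source used here names the build behind the array's annotation. None of the 59 genes lay directly next to another. With 1 gene between them lay F53C3.5 and F53C3.3, separated by F53C3.4, and H42K12.3 and F21E9.2, separated by the kinase gene pdk-1. The clone F53C3 is also the only one to hold 2 of the 59 genes.

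The F53C3 genes form a run with higher mutant means. In order, F53C3.6 read 9.58, 10.43 and 8.67 in N2 and 10.96, 9.81 and 10.66 in the mutant, the pseudogene F53C3.5 read 10.26, 10.50 and 9.69 against 10.98, 10.61 and 10.88, and F53C3.4 read 6.28, 7.12 and 6.21 against 7.25, 7.12 and 7.17. F53C3.3 read 9.07, 9.55 and 8.90 against 10.08, 10.14 and 9.68. Differences of the 4 genes were 0.92, 0.67, 0.64 and 0.80, and N2 3 was the lowest array in each. F53C3.6 was left out of the 59 because mutant 2 lay below N2 2, and F53C3.4 because its values on N2 2 and mutant 2 were identical. The run ended on both sides at genes near the lowest value of the scale, F53C3.7 at 2.05 and F53C3.11 at 2.04 on all arrays. A second, dim probe set of F53C3.3 differed by 0.09, and the second of F53C3.6 by 0.55.

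**Figure D5:**
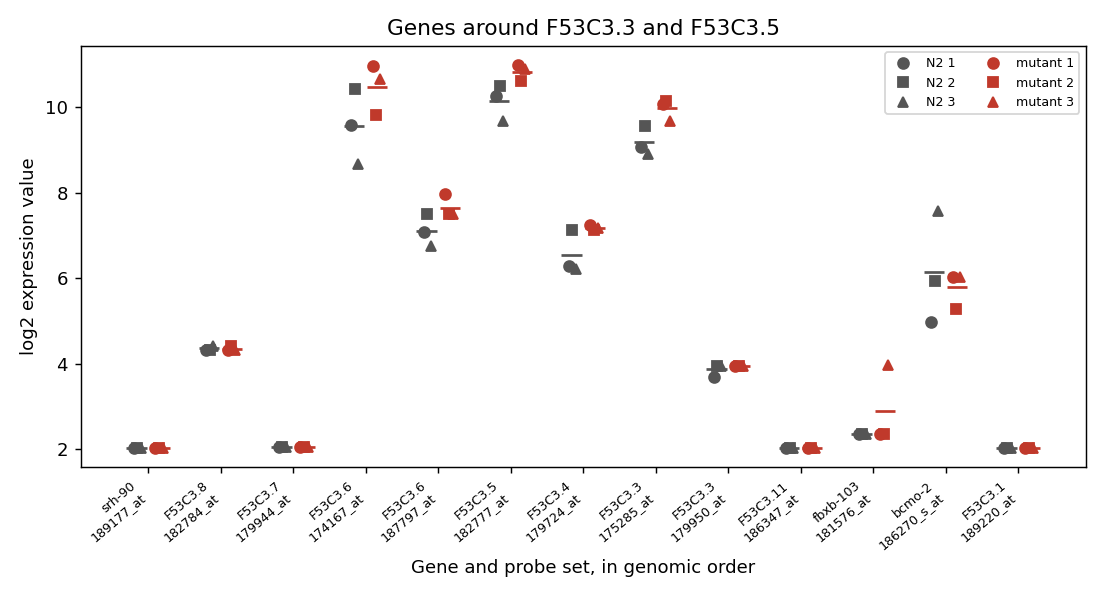
Log2 expression value (vertical) of the probe sets of genes around F53C3.3 and F53C3.5 in genomic order, N2 in grey and the mutant in red, with bars at the means of 3 arrays. The brighter probe sets of F53C3.6, F53C3.5, F53C3.4 and F53C3.3 have means higher in the mutant by 0.64 to 0.92, and the genes F53C3.7 and F53C3.11 beside this run are near 2.04 on every array.

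At H42K12.3 and F21E9.2 the gene between them did not share the direction. F21E9.2 read 8.495, 8.515 and 8.631 in N2 and 8.99, 8.66 and 9.76 in the mutant, while pdk-1, a kinase gene of insulin signalling, read 8.16, 8.29 and 8.37 against 8.20, 8.16 and 7.95 at its brightest probe set. Over all 59 genes, 58 different genes that lie directly beside one of them could be read. Their median difference was -0.02, against -0.01 for the neighbours of all 2481 sequence-named genes, and 23 of the 58 had a difference above 0, against 1150 of 2493. Without overlap, 3 neighbours (5.17%) were higher, against 3.61%, and 7 (12.1%) were lower, against 10.1%. The 3 were pals-22 beside C29F9.2, ZC449.1 beside ZC449.2 and R10D12.8 beside R10D12.7, with differences of 0.41, 0.38 and 0.19. The neighbour of C44B7.7, slc-36.5, went the other way, with 7.83, 8.40 and 8.39 in N2 and 6.01, 6.62 and 6.96 in the mutant.

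The limits of the group are set by the criteria. The genes just inside the difference of 0.4 were C01G6.9 and R10D12.7, at 0.40, and ZC449.2, at 0.41. C01G6.9 read 9.83, 9.91 and 10.29 in N2 and 10.41, 10.37 and 10.46 in the mutant. R10D12.7 read 8.09, 8.69 and 8.51 against 8.93, 8.87 and 8.71, and ZC449.2 read 8.22, 8.56 and 8.37 against 9.05, 8.63 and 8.68. In all 3 the groups were less than 0.1 apart. Just outside lay EEED8.2, at 10.57, 10.51 and 9.99 against 10.64, 10.60 and 11.02, C35B1.5, at 12.88, 12.98 and 12.85 against 13.36, 13.34 and 13.16, and D2085.7, at 7.42, 7.42 and 7.23 against 7.66, 7.82 and 7.74. Their groups were separate as well, and only the size of the difference kept them out.

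At the minimum mutant mean of 6, C18G1.1 and K08E4.3 followed C33H5.1 just inside as the next dimmest of the 59 in the mutant. C18G1.1 read 6.57, 6.07 and 6.65 in N2 and 6.84, 7.06 and 7.04 in the mutant. K08E4.3 read 6.46, 6.38 and 6.39 against 6.62, 6.96 and 7.42. Just outside were T01B6.1, C54F6.3 and F16H6.7, with mutant means of 5.97, 5.96 and 5.95. Altogether 8 sequence-named genes met the other criteria below that mean. At or above it, 75 had separate groups but a difference under 0.4 at the brightest probe set of the gene. In 154 the level and the difference were met but the arrays overlapped. The overlapping genes thus outnumber the 59.

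Exact ties limit the finest statements. In 4 of the 59 genes, F52B11.5, W04E12.7, C29F9.2 and F46F11.7, a pair of arrays had identical values, against 37.1% of the 2481 sequence-named genes. A tie between genotypes at the edge of a group keeps a gene from meeting the criteria, as at F53C3.4. Probe sets whose names mark possible reading of several transcripts (an s or x in the suffix) stood for 9 of the 59 genes (15.3%), against 29.5% of the 2481.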

How the data were processed

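The deposited table holds the authors' log2 value of every probe set on 6 arrays. GCRMA (background correction from the probes' own sequence) and limma are named in the submitters' processing notes, and neither version nor setting is stated there. Scanner intensities were not analysed here. The number of arrays limits the precision, and 3 against 3 cannot give an exact permutation p under 0.1.

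Groups and replicate numbers come from the sample titles. Probe sets were named through the platform's annotation, 20766 with 1 gene, and 77 control probe sets were left out. The members, lists and criteria were chosen with earlier results of these data known. For the background, probe sets with a log2 value of at least 4 on at least 3 arrays (12060) were fitted with limma 3.58.1 in R 4.3.3 (mutant minus N2, Benjamini-Hochberg over all of them, threshold 0.05), and 1 probe set per gene was counted. The fit was tested on simulated data. Genes named with values are the 12 with the largest difference, the 6 brightest, up to 6 with several probe sets, members near another member, and the 3 nearest each threshold, inside and outside. Other genes named for their gap or for their other probe sets were chosen after their values were seen. So were those named for the arrays numbered 3, for ties or as neighbours. No annotation of protein families or sequences was used. Same-numbered arrays did not deviate together (correlations of deviations of -0.41, -0.42 and -0.52 over 12060 probe sets).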

Additional observations from a re-analysis of the deposited data

How the results depend on the processing

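The number of genes meeting the criteria was 59 with the deposited values, 125 after quantile normalization (all 59 among them) and 120 without both arrays numbered 3 (35 of the 59). It was 39 at a minimum difference of 0.5 and 7 at 1. Leaving out 1 array in turn gave 74 to 128 genes, 45 to 56 of them among the 59. Over 1.5 times the number were the counts without N2 1 (92), N2 2 (111) and mutant 2 (128), and fewer arrays make a separation easier to reach. It stayed within 1.5 times of 59 after median centring (85), with values under 4 set to 4 (59), with a gene's probe sets averaged (53), with plain probe set names (50), with the brightest probe set first (55), at a minimum mean of 5 (63) or 7 (56) and at a minimum difference of 0.3 (88). The median difference of the 59 ran from 0.42 to 0.66 over the settings that change the values, the probe sets or the arrays. The share of chosen genes higher on left-out arrays was 72.4%, 46.0% and 41.7% for the arrays numbered 1, 2 and 3. Over all sequence-named genes at that level it was 36.9%, 31.5% and 54.1%. The 3 choices together gave 51.8%, with a gene counted once for each choice that held it.

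In limma, 1 gene was higher and 12 were lower. No filter gave 0 and 1, quantile normalization 2 and 17, median centring 1 and 19, and the fit without both arrays numbered 3 gave 26 and 176. With the replicate block no gene was called in limma, 0 higher and 0 lower. An unadjusted limma p under 0.05 was found there in 572 of the 9113 genes tested, against 783 in the main fit. The same replicate number did not pair the samples. Leaving out 1 array in turn gave 0 to 1 higher and 0 to 2 lower.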
